A study of Caenorhabditis elegans with 2 samples.

Results

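Intronic SNPC-4 peaks far from any gene start were taken from the thresholded ce11 list as peaks on the nuclear chromosomes other than IV. Their summit had to lie more than 200 bp from the annotated 5′ end of every gene, inside a protein-coding gene and in no annotated exon. There were 208 such peaks among the 2345 of the list, or 14.2% of the 1462 nuclear peaks not on chromosome IV. The data came from chromatin immunoprecipitation followed by sequencing (ChIP-seq) of whole *Caenorhabditis elegans* young adults of mixed sex, strain OP179, with genotype *unc-119(ed3)* III and the integrated transgene *wgIs179*. The transgene adds a GFP-FLAG tag to the C-terminus of SNPC-4, so the tagged protein was present beside whatever the endogenous gene makes. The only group was 2 biological replicates, without a second condition, so no difference between conditions could be tested. Signal, a unitless score of enrichment from the authors' peak calling, is given throughout, and the lowest thresholded signal was 41.5. Lists of peaks without read counts were used, so the depth was unknown, and all intervals are Wilson 95% intervals that cover counting error only.

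SNPC-4 is the worm homologue of SNAPC4, the large DNA-binding subunit of SNAPc, the small nuclear RNA activating protein complex. SNAPc binds the proximal sequence element upstream of genes of small nuclear RNA (snRNA) and, in worms, of spliced leader RNA, the short RNA joined to the 5′ end of many messenger RNAs. In the worm germ line SNPC-4 is also known for its part in the transcription of piRNA genes, most of which lie on chromosome IV. Introns of protein-coding genes in worms can hold small RNA genes with promoters of their own.

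The sequences that best show what many of these intronic peaks shared are those under their summits beside promoters of RNA genes. A promoter element was read, without use of any peak, from the bases upstream of snRNA and spliced leader genes, where it began a median of 62 bp before the 5′ end (57 to 82). It spans 21 bases, which start with the block GCGGAACCCG and end with TGTCGG. Below, the 21 bases of the best-scoring site are in capitals with 20 bases on either side, from the RefSeq copy of the WBcel235 genome (ce11), read on the strand of the element. The first 3 lie upstream of the spliced leader gene *sls-2.14*, the snRNA genes *sup-6* and *W05B2.8*. The next 8 lie under intronic peaks and were chosen to show strong peaks and sequences that recur.
sls-2.14 promoter, chrIII:11090546-11090606, minus strand: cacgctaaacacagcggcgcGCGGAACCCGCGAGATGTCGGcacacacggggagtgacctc
sup-6 promoter, chrII:12944987-12945047, minus strand: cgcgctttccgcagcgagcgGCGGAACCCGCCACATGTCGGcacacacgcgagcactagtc
W05B2.8 promoter, chrIII:10989588-10989648, plus strand: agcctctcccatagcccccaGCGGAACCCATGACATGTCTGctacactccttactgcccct
sre-45 intron, chrII:13522001-13522061, plus strand: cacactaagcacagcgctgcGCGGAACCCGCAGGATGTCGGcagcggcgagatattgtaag
C33B4.4 intron, chrII:11376948-11377008, minus strand: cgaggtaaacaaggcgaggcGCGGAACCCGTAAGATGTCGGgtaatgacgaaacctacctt
cng-1 intron, chrV:15029110-15029170, minus strand: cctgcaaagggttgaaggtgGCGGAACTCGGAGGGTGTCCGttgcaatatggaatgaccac
dcs-1 intron, chrV:20088587-20088647, minus strand: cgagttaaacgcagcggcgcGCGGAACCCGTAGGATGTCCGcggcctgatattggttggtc
bed-2 intron, chrIII:11465548-11465608, minus strand: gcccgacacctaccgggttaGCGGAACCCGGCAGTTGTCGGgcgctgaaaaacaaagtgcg
taf-3 intron, chrX:16341932-16341992, minus strand: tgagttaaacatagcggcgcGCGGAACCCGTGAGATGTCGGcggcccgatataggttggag
gbb-1 intron, chrX:2960880-2960940, minus strand: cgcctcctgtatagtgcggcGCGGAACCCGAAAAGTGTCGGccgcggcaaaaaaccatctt
srg-61 intron, chrV:2739781-2739841, plus strand: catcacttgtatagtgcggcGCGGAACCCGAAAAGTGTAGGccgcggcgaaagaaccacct

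Strong intronic peaks without the element also occurred, and a pair of them is shown for contrast as the 81 bases around the summit on the plus strand, with any copy of the closing block TGTCGG in capitals on either strand.
Y46G5A.34 intron, chrII:12778526-12778606: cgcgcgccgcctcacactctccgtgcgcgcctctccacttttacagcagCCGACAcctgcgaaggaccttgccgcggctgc
zfp-1 intron, chrIII:8795908-8795988: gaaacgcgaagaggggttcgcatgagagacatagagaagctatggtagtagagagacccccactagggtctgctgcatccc

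The peaks were mostly of moderate strength. Their signal ran from 41.5 to 662 with a median of 58.5 and quartiles of 47.5 and 75.8. The median of all 1462 peaks off chromosome IV was 62.1, that of 417 far intergenic peaks 58.4 and that of 288 peaks at protein-coding gene starts 58.5. Peaks at starts of structured RNA genes, meaning spliced leader, snRNA, tRNA and snoRNA genes (n = 334), had a median of 82.0 and reached 2805. Of the intronic peaks 181 had a signal under 100, and 7 were among the 100 strongest peaks off chromosome IV. The width was 380 bp in 148 of them. The 10 intronic peaks just past the limit, at most 250 bp from a gene start, had signals between 42.6 and 109. The 3 intronic summits just short of it, 180 to 200 bp away, had 43.5 to 65.6.

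The strongest intronic peak lay in intron 3 of *sre-45*, a chemoreceptor gene, with its summit at position 13522044 of chromosome II. It had a signal of 662 in the thresholded list, 304 in replicate 1 and 370.0 in replicate 2, and its element scored 33.3 bits. The nearest annotated start was that of the snoRNA gene *F54F11.6*, 743 bp away. The next, in intron 1 of *Y46G5A.34* (II, 12778566), reached 413 in the list and 199.5 and 214 in replicates 1 and 2. No element there passed the score used below. A peak in intron 2 of *W04A8.6* (I, 13859265) had signal 412, with 197 and 212. The flanks of *Y46G5A.34* and *W04A8.6* were in part repeated, with 69.7% and 77.8% of their 32-base words present only once in the genome. Reads there could therefore come from another place. In these 3 peaks replicate 2 was higher than replicate 1.

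*C33B4.4* held a peak in a gap of 7040 bp between exons (II, 11376942), at 376 in the list, 213 in replicate 1 and 166 in replicate 2. In *cng-1*, which encodes a cyclic nucleotide-gated channel subunit, the peak (V, 15029131) had signal 349.6, with 206 and 146. It lay within 200 bp of the annotated 5′ end of another transcript, so it was far from gene starts but not from every transcript start. The peak of *hgap-2* (II, 8671037) had signal 215, with 134 and 66.3, and that of *rft-2*, a riboflavin transporter gene (V, 4447736), had 119 in replicate 1 and 74.3 in replicate 2. In *zfp-1*, the gene of a chromatin protein related to AF10, the strongest of 3 peaks (III, 8795948) had signal 197, with 109.7 and 82.2, and no element. These 5 peaks were higher in replicate 1.

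The others among the 10 strongest were in *egl-27*, a gene of a chromatin-remodelling protein (II, 6842794), with signal 159, and in *dcs-1*, the gene of the scavenger decapping enzyme (V, 20088634), with 150.4. Only 43.8% of the 32-base words around the *dcs-1* summit were unique. The remaining 10 of the 20 strongest had signals between 109 and 145 and lay in *lgc-40*, *Y48C3A.5*, *bed-2*, *C23G10.1*, *Y71G12B.23*, *Y51A2D.13*, *srg-61*, *F13D12.10*, *M04F3.5* and *hrpk-1*. Among them *lgc-40* encodes a ligand-gated ion channel and *hrpk-1* an RNA-binding protein of the hnRNP K family. Of the 20 strongest intronic peaks 13 had the element.

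An entry of the replicate list lay within 100 bp of the summit for 193 intronic peaks in replicate 1 and 183 in replicate 2, and for 168 in both (80.8%). Where both had one, the signal ran from 7.89 to 304 in replicate 1 and from 3.50 to 370 in replicate 2. It was higher in replicate 1 for 102 peaks and in replicate 2 for 66, with a median log2 ratio of replicate 1 over replicate 2 of 0.28 (SD 0.97). The median ratio was 0.19 over all peaks off chromosome IV, so the lean towards replicate 1 was not restricted to introns. Of the 208 peaks, 136 were among the 2345 strongest entries of replicate 1, 136 among those of replicate 2, and 85 among both.

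**Figure D1:**
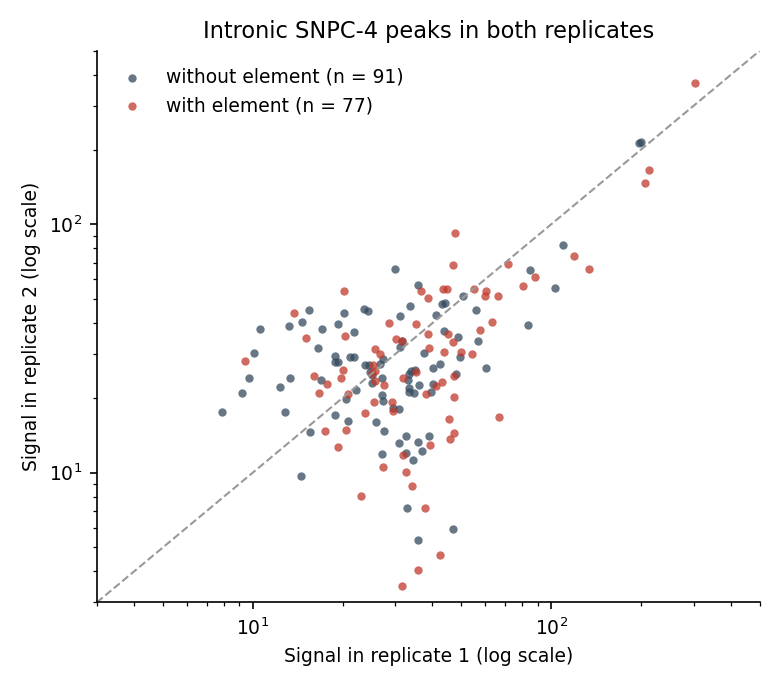
Signal of the intronic peaks in replicate 1 (x axis) and replicate 2 (y axis), both unitless and on log scales, for the 168 peaks with an entry in both lists. Points are peaks, red with and dark blue without the promoter element, and the dashed line marks equal signal. The highest point is *sre-45*, at 304 and 370, and 45 peaks differ by more than 2-fold.

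Most intronic peaks lay far past the limit. The nearest gene start was a median of 1704 bp away (205 to 11129), and 135 of the 208 (64.9%) were more than 1000 bp from every gene start. In 95 cases the summit was in the first intron of an annotated transcript (45.7%, 39.0 to 52.5), where 31.6% of all eligible intron positions lie. Over the strongest entries of each list, replicate 1 had 48.9% and replicate 2 had 50.7%. Gaps between exons of 1000 bp or more held 110 peaks (52.9%, 46.1 to 59.6) against 44.3% of eligible positions, and 48.4% and 52.1% of the strongest entries in the replicates. Within 200 bp of the start of another isoform were 12 peaks (5.77%, 3.33 to 9.81), beside 3.20% of positions. Within 100 bp were only the summits 47 and 76 bp away, or 0.962% of peaks, below the 1.29% of positions. These were too few to read as a change of order. Only 3 peaks lay more than 200 and at most 1000 bp from the start of a structured RNA gene (1.44%, 0.492 to 4.15), beside 1.19% of positions.

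Per megabase of eligible intron there were 8.16 peaks, with 7.45 and 8.59 among the strongest entries of replicates 1 and 2. Far intergenic sequence, also 25.5 Mb, held 16.3 peaks per Mb, and the introns of chromosome IV chosen the same way held 21.9. Chromosome II had the densest introns, with 53 peaks at 12.1 per Mb. It was followed by III with 46 at 9.23, X with 43 at 8.68, V with 35 at 6.34 and I with 31 at 5.48. In the replicates chromosome I had 26 and 34 peaks and II had 47 and 52, so that II held more in each. Intergenic peaks followed another order, with the highest density on III (27.6 per Mb) and the lowest on V (9.65).

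The promoter element was far more frequent at the summits than in introns at large. A site was counted when it lay within 100 bp of the summit and its score was at least 17.8 bits, which 1.00% of the 25501201 eligible positions pass by the way the limit was set. It was found at 91 of the 208 peaks (43.8%, 37.2 to 50.5). By chromosome the share ran from 28.3% on III (13 of 46) to 65.1% on X (28 of 43). Peaks with the element were densest on X, at 5.65 per Mb, and peaks without it on II, at 7.53. The strongest entries of replicate 1 had it in 45.8% and those of replicate 2 in 37.4%, a mean of 41.6% ± 5.90 (SD, n = 2). The closing block TGTCGG alone, on either strand, was present at 109 peaks (52.4%, 45.6 to 59.1) against 5.45% of positions, and 88 peaks had neither. Of the 91 peaks with the element, 26 had 2 or more sites that did not overlap.

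The same search was made at other kinds of peak. Peaks in the introns of chromosome IV chosen the same way had the element in 32 of 98 cases (32.7%, 24.2 to 42.4), against 0.918% of eligible positions there, and this interval overlaps that of the intronic peaks on the other chromosomes. Far intergenic peaks had the element in 79 of 417 cases (18.9%, 15.5 to 23.0), far exonic ones in 10 of 64 (15.6%) and peaks at protein-coding starts in 10 of 288 (3.47%, 1.90 to 6.27). At tRNA genes, whose promoters lie inside the gene, it was found in 2 of 210 (0.952%). At snoRNA genes it was found in 27 of 72 (37.5%, 27.2 to 49.0), an interval that overlaps that of the intronic peaks. Peaks at snRNA genes had 63.4% and those at spliced leader genes 61.5%, but the matrix was learned from such genes, so that these are not independent. These shares were set side by side with their intervals and no test of the differences was made.

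**Figure D2:**
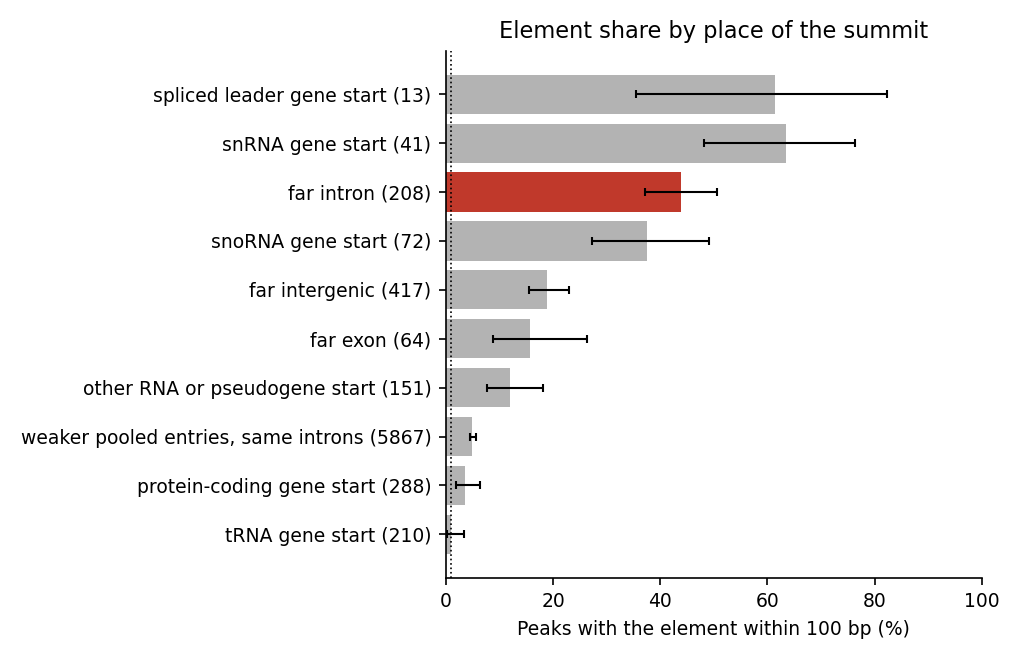
Share of peaks with the promoter element within 100 bp of the summit (x axis, percent), by the place of the summit (y axis, with the number of peaks), off chromosome IV. Bars are shares, whiskers Wilson 95% intervals and the dotted line the 1.00% of eligible intron positions. Far intronic peaks, in red, stand at 43.8%, between snRNA genes at 63.4% and snoRNA genes at 37.5%. The interval of the snoRNA genes overlaps that of the intronic peaks, and far intergenic peaks stand at 18.9%.

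The element lay close to the summit, at a median of 25 bp between its centre and the summit, and within 50 bp in 72 of 91 cases. It was on the strand of the host gene in 53 and on the opposite strand in 38. The bases around summits were rich in G and C, with a median GC content of 49.5% within 50 bp (quartiles 44.4 and 54.5) against 32.7% over eligible positions. Far intergenic peaks had the same 49.5% and protein-coding promoter peaks 46.5%. Peaks with the element had 50.5% and those without it 48.5%. Since the element is itself rich in G and C, its share was also read at like GC. Positions with a GC content of 55% or more had the element in 17.8% of cases and peaks there in 60.8% (31 of 51, 47.1 to 73.0). Between 45 and 50% the values were 3.93% and 37.3% (19 of 51), and under 40% they were 0.313% and 23.1% (6 of 26).

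**Figure D3:**
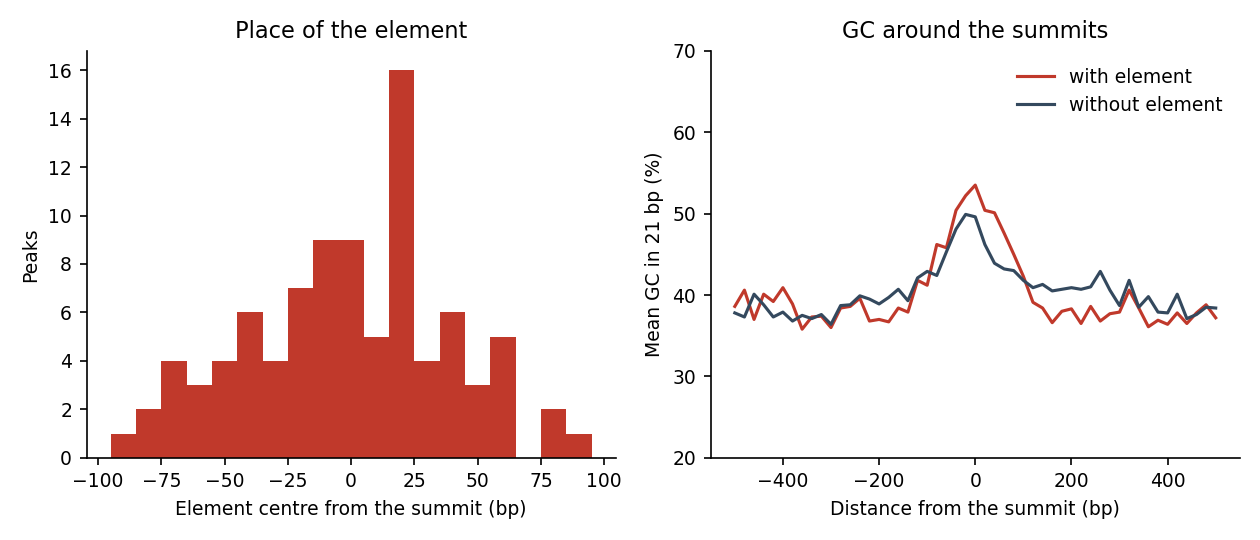
Left, distance of the element's centre from the summit (x axis, bp) for the 91 intronic peaks with the element, as numbers of peaks in bins of 10 bp. Right, mean GC content in windows of 21 bp (y axis, percent) by distance from the summit, in red with and in dark blue without the element. Both groups rise at the summit, to 53.5% and 49.6%.

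The share followed the signal. Over the pooled list given to the authors' reproducibility analysis, which holds peaks and background, 6075 entries lay in the same introns. The 100 strongest had the element in 51.0% (41.3 to 60.6), those ranked 501 to 1000 in 14.4%, and those ranked 4001 to 6075 in 1.30% (0.896 to 1.89), near the 1.00% of all positions. Of the 5867 entries with a signal under the threshold 4.94% had it. Their GC content within 50 bp had a median of 35.6%, against 49.5% for the 208 peaks. The ranks were not matched for GC content, and its part in the fall with rank was not tested. Within the 208 peaks, 26 of the 52 strongest had the element (interval 36.9 to 63.1%) and 17 of the 52 weakest (32.7%, 21.5 to 46.2), so these intervals overlap.

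**Figure D4:**
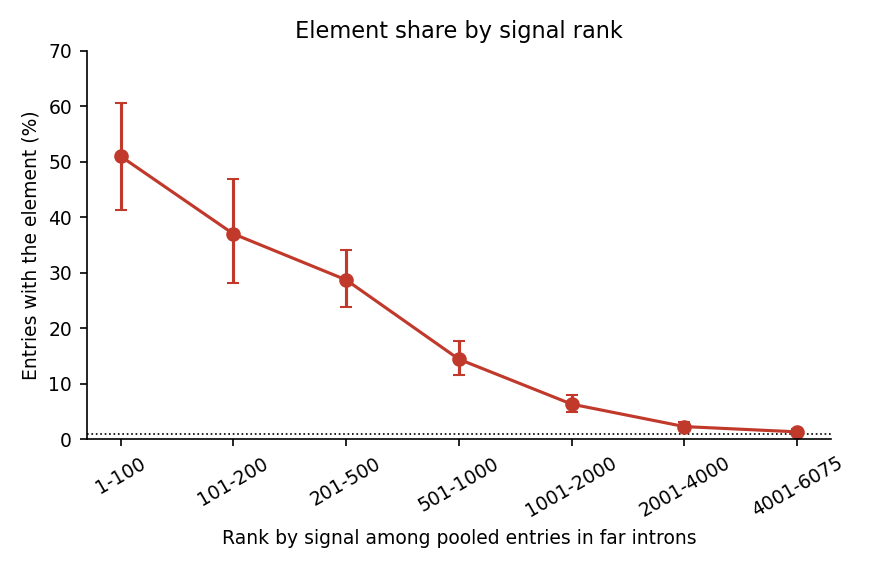
Share of entries with the element (y axis, percent) by rank of signal among the 6075 pooled entries in far introns (x axis, rank ranges), with Wilson 95% intervals. The dotted line is the 1.00% of eligible positions. The share falls from 51.0% in the first 100 ranks to 1.30% in the last range. The ranges were not matched for GC content.

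Short words of the same promoters gave a smaller share in the same direction. The leading word was also the seed of the element's matrix, so the word search was not independent of the element search. The 10 commonest words of 8 bases in the promoters of snRNA and spliced leader genes, led by CGGAACCC in 30 of 113 distinct windows, were searched on either strand within 100 bp of the summits, and overlapping words counted singly. At least 1 was present at 41 intronic peaks (19.7%, 14.9 to 25.6), with 18.4% and 19.6% in the replicates, against 1.64% of eligible positions. Far intergenic peaks had 10.3% (7.75 to 13.6) and protein-coding promoter peaks 4.51%.

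Bases outside the 21 scored ones were in part alike and in part not. A run of 6 columns, from 10 to 5 bases before the element, was led by A, T, A, G, T and G both in the 94 promoter windows with a site, in 40.4 to 55.3% of them, and in the 91 intronic peaks, in 48.4 to 69.2%. The 4 columns between that run and the element had other leading bases in each, G, G, G and C in the intronic peaks (30.8 to 50.5%) and A, C, C and A in the promoters (30.9 to 40.4%). Just after the element, promoters were led by T, A, C, A and C in 51.1%, 62.8%, 69.1%, 73.4% and 67.0% of windows. The intronic peaks were led there by C, C, G, C and T, in 71.4%, 58.2%, 85.7%, 85.7% and 51.6%. Among the 46 intronic peaks with the element that belonged to no sequence family (described next), the same 5 bases led after the element, the G and the following C in 78.3% each. Of the run of 6 before it, the last 2 columns kept the T and G of the promoters, in 43.5% and 45.7%. The first 4 columns were all led by A, in 30.4 to 34.8%. In 2 of these 4 A also led in the promoters. Eligible intron is itself rich in A and T (31.9% GC), so A there could not be told from base content. The likeness to promoters before the element was thus partly lost.

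Part of the intronic peaks were copies of one another. When windows of 100 bp to either side of the summits were compared, 54 peaks fell into 4 families of at least 50 bp at 80% identity. The largest family had 32 peaks on all 5 chromosomes, 30 of them with the element, and includes the *srg-61*, *gbb-1*, *chil-14*, *twk-22* and *ric-7* peaks. The second had 16, with 14 carrying the element, and includes *C33B4.4*, *dcs-1*, *slt-1*, *nlp-40* and a peak of *taf-3*. Counting each family as 1 sequence, 49 of 158 sequences had the element, and of the 154 peaks in no family 46 did (29.9%, 23.2 to 37.5). With far intergenic and exonic peaks in the same comparison, the intronic peaks unlike any other far peak had it in 41 of 147 (27.9%, 21.3 to 35.6). Of the intergenic peaks unlike any other, 27 of 347 had it (7.78%, 5.40 to 11.1). Most summits were nonetheless in sequence that reads could be placed in, as 150 of 208 had only unique 32-base words within 200 bp and 20 had fewer than 80% (9.62%).

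Most copies of these families had no peak. The first matched 371 stretches of eligible intron off chromosome IV, of which 32 had a thresholded summit within 100 bp (8.63%). Elsewhere off chromosome IV it matched 306, of which 38 had one (12.4%). On chromosome IV, where copies in and outside introns were counted together, it matched 88, of which 27 had one (30.7%). For the second family the numbers were 15 of 207 in introns (7.25%), 17 of 114 elsewhere off chromosome IV (14.9%) and 36 of 97 on chromosome IV (37.1%). Not every copy had the element. Of the intron copies off chromosome IV, 289 of 371 had it in the first family and 87 of 207 in the second. In the first family 233 of 306 had it elsewhere off chromosome IV and 69 of 88 on chromosome IV. In the second family 78 of 114 had it elsewhere off chromosome IV and 79 of 97 on chromosome IV. Peaks at copies with the element alone were not counted.

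Taking all sites of the element in eligible introns off chromosome IV, 129 of 1725 had a thresholded summit within 100 bp of the site's centre (7.48%, 6.33 to 8.82). Of all eligible positions 0.163% did. Sites and positions were not matched for GC content, whose median over eligible positions was 32.7% within 50 bp. The intervals treat each site as separate, although neighbouring sites can share a summit and many sites lie in copies of the families above. The share was 3.35% for scores between 17.8 and 20, 7.59% up to 25, 11.2% up to 30 and 15.4% above (22 of 143, 10.4 to 22.2). In the replicates it was 13.3% and 17.5% in the highest class. Far intergenic sites had 8.81% in all (104 of 1180, 7.33 to 10.6) and 13.7% in the highest class, both within the intervals of the intronic ones. In the class of 17.8 to 20 they had 5.83% and in that of 25 to 30 they had 15.6%, above the intronic intervals of 2.20 to 5.07 and 8.37 to 14.8, and below 17.8 they had 1.40% against 0.729 to 1.19. Intron sites of chromosome IV had 15.5% in all (47 of 303, 11.9 to 20) and 31.6% in the highest class. Of the 519 intronic sites scoring 25 or more, the 64 with a peak and the 455 without one were alike in GC content within 100 bp, with medians of 50.2% and 51.2%. Fewer than 80% of the 32-base words were unique in 12.5% of those with a peak and 22.4% of those without, and the part of mappability in the difference was not tested.

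**Figure D5:**
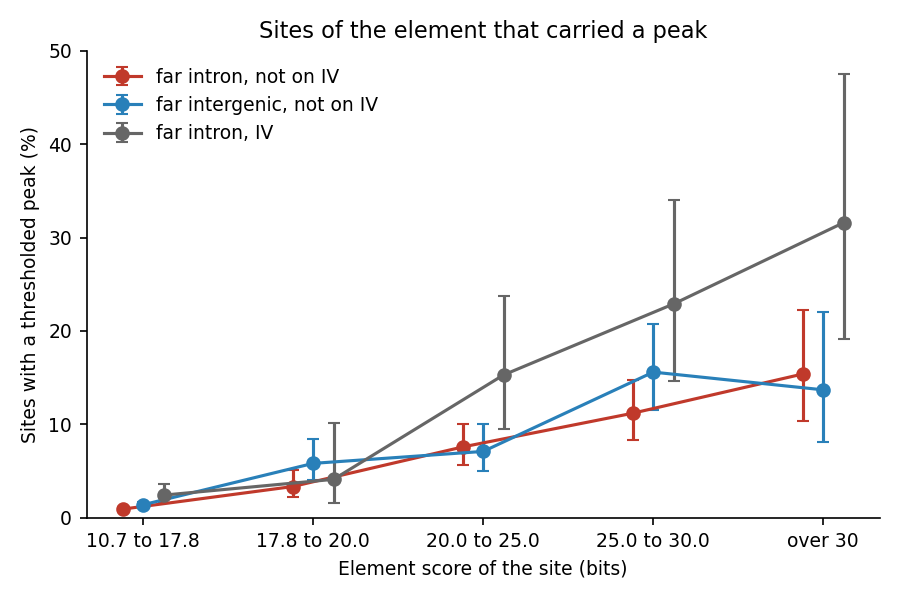
Share of element sites with a thresholded summit within 100 bp (y axis, percent) by element score (x axis, bits), for far introns off chromosome IV (red), far intergenic sequence off chromosome IV (blue) and far introns of chromosome IV (grey), with Wilson 95% intervals. Intronic sites off chromosome IV rise from 0.932% to 15.4%.

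A few intronic summits lay beside sequence alike to an annotated small RNA gene. Within 200 bp, 11 peaks had a stretch of at least 30 bp at 80% identity to a spliced leader, snRNA, tRNA, snoRNA or rRNA gene (5.29%, 2.98 to 9.22), against 0.662% of eligible positions, with 7.37% and 4.57% in the replicates. In all 11 the best match was a gene annotated as snoRNA. The peaks of *M04F3.5*, *M151.2*, *syg-2*, *Y70G10A.3* and *C05G5.5* and both of *ric-7* belonged to the largest sequence family. That of *C33B4.4* belonged to the second, and the others, in *rft-2* and *nhr-28*, matched the same gene. The 11 were therefore not separate likenesses to RNA genes. Both *rft-2* peaks, with summits at 4447736 and 4447955, had within 200 bp a stretch of 154 bp (chrV:4447834-4447987) at 90.3% identity to the whole of a snoRNA gene of chromosome IV (chrIV:15649207-15649360, minus strand). The first summit lay before that stretch and the second inside it. The element began 63 bp before it and on the same strand, within the range of 57 to 82 bp at snRNA and spliced leader genes. At that gene itself the best site scored 31.5 bits as well and began 64 bp before the 5′ end. A thresholded peak of chromosome IV with signal 356 lay near that 5′ end. In an intron of *nhr-28*, a nuclear hormone receptor gene, 152 bp matched the same gene at 91.4%. The *nhr-28* element lay on the opposite strand to the match and began 157 bp from it, outside the 57 to 82 bp. Matches at *M04F3.5*, *M151.2*, *Y70G10A.3* and *ric-7* covered 45 to 52 bp of the 175 bp gene *Y73F8A.1175*, from its first base. At the second *ric-7* summit the element also began 63 bp before the match on the same strand. Of the 8 peaks with both a match and the element, 5 had them on opposite strands. The pair of sequences below shows the *rft-2* stretch and the gene, each from the element, in capitals, to the end of the match.
rft-2 intron, chrV:4447771-4447987, plus strand: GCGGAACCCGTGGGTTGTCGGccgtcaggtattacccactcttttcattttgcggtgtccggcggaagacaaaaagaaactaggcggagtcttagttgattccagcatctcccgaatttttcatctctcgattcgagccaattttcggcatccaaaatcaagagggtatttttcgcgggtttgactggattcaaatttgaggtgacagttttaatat
snoRNA gene, chrIV:15649207-15649424, minus strand: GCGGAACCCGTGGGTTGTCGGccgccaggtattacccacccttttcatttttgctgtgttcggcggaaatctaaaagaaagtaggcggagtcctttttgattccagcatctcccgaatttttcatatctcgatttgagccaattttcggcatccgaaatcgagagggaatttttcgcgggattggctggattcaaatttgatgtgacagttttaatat

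The 208 peaks lay in 176 protein-coding genes, 1.12% of the 15660 that have eligible intron. In 24 of these genes there were 2 or more peaks, 57 in all. *Y48C3A.5* had 5 peaks with signals of 44.9 to 139.7, all in a single gap of 13864 bp, 1 of them with the element. *daf-5*, the gene of a Ski-related transcription cofactor of the TGF beta pathway for dauer formation, had 5 in its first intron of 14446 bp, with signals of 43.4 to 82.2 and none with the element. In replicate 1 the *daf-5* peaks had signals of 32.8 to 44.4, and in replicate 2 the 4 with an entry had 7.21 to 22.7. *pde-3*, a phosphodiesterase gene, had 4 with signals of 42.4 to 75.8, of which 3 had the element, over 21891 bp. *zfp-1* had 3, of 85.2, 92.1 and 197, and none had the element or the block TGTCGG.

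The other 20 genes had 2 each: *F54G2.1*, *M03C11.1*, *Y111B2A.12*, *ZK131.11*, *daf-12*, *egl-27*, *egl-8*, *gei-4*, *lea-1*, *lgc-40*, *mfsc-1*, *mnk-1*, *pqn-41*, *rft-2*, *ric-7*, *scc-2*, *sma-9*, *taf-3*, *tir-1* and *twk-45*. In *taf-3*, *ric-7* and *F54G2.1* both had the element. In *ric-7* the 2 summits were 225 bp apart in repeated sequence, with 59.7% of words unique around either, and replicate 1 had no entry within 100 bp of them.

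Gene lists by symbol held few of the peaks. Of 1024 chemoreceptor genes with eligible intron 7 had a peak (0.684%), the strongest in *sre-45* and *srg-61*. The lists of nuclear hormone receptors (3 of 236, *nhr-3* at 67.7 and *nhr-19* at 66.0 the strongest), neuropeptides (1 of 110, *nlp-40* at 56.0), collagens (1 of 105, *col-186* at 63.2) and ligand-gated channels (1 of 75, *lgc-40*) had shares of 0.909 to 1.33%, near the 1.12% of all such genes. Potassium channels had 3 of 50, namely *twk-22* at 74.2, *twk-45* at 63.6 and *kqt-3* at 60.6, with 17.5 peaks per Mb of eligible intron. The list of *daf* genes had 2 of 18 and 53.3 peaks per Mb, but all 7 peaks were those of *daf-5* and of *daf-12*, the gene of the steroid hormone receptor of the dauer pathway. No peak fell in the 60 homeobox, 8 cadherin, 14 degenerin, 20 germ granule and small RNA, or 22 muscle genes. With counts this small, no list was read as differing from all genes.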

How the data were processed

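Peak lists from 2 biological replicates of SNPC-4 ChIP-seq were used, as narrowPeak files on ce11: the deposited thresholded list, and the pooled (30000 entries) and replicate lists given to IDR, the irreproducible discovery rate analysis. The signal is a score per peak by the authors' peak caller, in the deposited column 7. The deposited −log10 q values were not used for ranking. For the caller and the aligner, and for the IDR cutoff, the entry is "not given in the sources used here". Summits are deposited as bases from the peak start and were turned into positions counted from 1. No peak ran past the end of its chromosome in the reference.

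Gene positions came from Ensembl release 115 on WBcel235 (ce11) and symbols from RefSeq. The members, gene lists and alternatives were chosen with earlier results of these data known. The promoter element was added after the peaks had been examined. Its matrix came from 71 distinct sites in 119 distinct windows 20 to 100 bp upstream of snRNA and spliced leader genes on all nuclear chromosomes, IV included, with a pseudocount of 1. Backgrounds are exact shares over all eligible positions. Values per replicate came from the 2345 strongest entries of each list. Genes were named as the 20 strongest peaks, hosts with 2 or more peaks and up to 2 peaks per list; peaks named for a sequence, a match or a family were chosen after their values were seen. A peak in overlapping genes was named by the shortest. No comparison between groups of samples was possible, since there was 1 group. Python 3.11.15, numpy 2.4.6, pandas 2.3.3, scipy 1.17.1 and BLAST+ 2.17.0 (E-value 0.001) were used. The selection was checked against a direct reading of the rule at random positions of the genome. The site search was checked on exact consensus sites planted in random sequence, so weaker sites were not covered.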

Additional observations from a re-analysis of the deposited data

How the results depend on the processing

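No result had a test. No paired analysis was possible because there was 1 group. With the limit at 1000 bp there were 135 peaks, and in the stronger part of the list, its upper 50% by signal, 96 at 3.76 per Mb with a median signal of 78.2. Read from single replicates, on their own lower scale, the median signal was 27.4 to 34.7 and the GC content 48.5% in either. The share in repeated sequence was 10.1%, 10.8% and 10.4% at limits of 100, 500 and 1000 bp, 12.5% in the stronger part, 10% with the summit 1 base earlier and 8.68 to 8.95% in replicates. Gaps of 1000 bp or more held 59.6% and 63.0% at limits of 500 and 1000 bp and 48.4 to 52.1% in replicates, and gaps of 2000 bp or more held 34.1% (22.6% of eligible positions). Isoform starts were near 14.0% and 4.82% at limits of 100 and 500 bp and 4.17% in the stronger part. The limit of 100 bp lets in peaks up to 200 bp from a gene start, which is also a transcript start, so the 14.0% follows from the rule. Counted within 100 bp the share was 0.962%, which was below the 1.29% of eligible positions but rested on very few peaks. Structured RNA starts were near 3.95% and 0% at limits of 100 and 1000 bp, 3.12% in the stronger part and 1.83 to 3.16% in replicates. Only starts at most 1000 bp away were counted, so the 0% was fixed by the limit of 1000 bp. The limit of 100 bp in turn lets in peaks closer to such starts. Promoter words were found in 18.4%, 21.7% and 20.7% at the 3 limits, 25% in the stronger part, 18.4 to 19.6% in replicates, 16.3% within 50 bp (0.784% of positions) and 18.3% with 5 words (0.903%). Stretches alike to an RNA gene came to 7.46% at 100 bp, 7.29% in the stronger part, 4.57 to 7.37% in replicates and 1.92% at 50 bp and 90% identity (0.160% of positions). The element was in 50% of the stronger part, 37.4 to 45.8% in replicates, 34.6% within 50 bp (0.522% of positions), and in 59.1% and 10.1% at scores that 5% and 0.1% of positions pass. The alternatives for the element and the earlier summit were chosen after seeing the data. Apart from those fixed by the rule, the cause of these shifts was not tested.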
